A study of Rattus norvegicus with 15 samples.

Results

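Bone of ovariectomized rats given the condition YJT was set against bone of untreated rats that had kept their ovaries, over 6 of the 15 RNA sequencing libraries of the series (3 YJT and 3 Blank). All animals were female Sprague-Dawley rats. YJT rats were ovariectomized and carried the condition label YJT, an abbreviation that the labels do not spell out. Model rats were ovariectomized and labelled as having osteoporosis. Values of their 3 libraries are given here beside many of the results, though not all. Blank rats had no treatment and no osteoporosis label. The comparison therefore holds surgery and YJT together, and the effects of these cannot be told apart from YJT and Blank alone. No sham-operated group, age, dose or treatment time is described, and no label ties Zhuanggu Zhitong Capsule, the herbal preparation the series is about, to a group. The contrasts of YJT and of Model with Blank share the 3 Blank libraries, so their values are set side by side and not correlated.

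Ovariectomy removes the main source of oestrogen. Oestrogen normally restrains bone resorption, and its loss raises RANKL, the signal by which osteoblast-lineage cells drive osteoclast formation, while osteoprotegerin blocks that signal. Osteocytes, the cells embedded in bone matrix, make sclerostin (Sost), an inhibitor of Wnt signalling and of bone formation. Bone samples can also hold marrow, vessels and muscle.

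The 6 libraries held 67062290 to 69288302 counts. Bone genes were well covered: Col1a1, the main collagen chain of bone matrix, took 2.20%, 1.49% and 0.228% of counts in the YJT libraries, against 1.84%, 2.19% and 4.75% in Model and 1.01%, 3.15% and 2.36% in Blank. YJT3 stood apart, at 0.228% (95% exact binomial interval 0.227% to 0.229%, counting error only). All 4 osteoblast and all 4 osteocyte markers were detected in every YJT and Blank library, and so were markers of skeletal muscle, red cells, neutrophils and B cells. Correlations of log2 values between libraries were 0.934 to 0.957 within YJT, 0.953 to 0.971 within Blank and 0.933 to 0.964 between YJT and Blank. The labels do not name separate animals for the replicates, so p-values reflect variation among these samples that may be technical. In such bulk samples, fewer cells of a type and less RNA per cell cannot be told apart.

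Under edgeR's quasi-likelihood test with Benjamini-Hochberg adjustment, 0 of 17657 genes tested passed 0.05 between YJT and Blank (0%), and the smallest adjusted p was 0.453. At an unadjusted p under 0.05 there were 1465 genes (8.3%), of which 974 were higher in YJT (5.52%) and 491 lower (2.78%), where about 882.85 would come from a uniform spread of p-values. All 3 YJT libraries lay above all 3 Blank libraries for 1858 genes (10.5%) and below them for 1365 (7.73%). The other tools divided: limma on log2 FPKM called 0 genes, and DESeq2 called 112 (0.66%), 84 of them higher (0.495%) and 28 lower (0.165%). The first DESeq2 call by p, named after its values were seen, was Ptgds, a prostaglandin synthase, at 1.94 CPM (counts scaled to library size) in YJT1 and 0 in the other 5 libraries. Model against Blank gave 4 edgeR calls (0.0227%), which were the muscle-expressed genes Mlf1, Sh3bgr, Adssl1 and Pkia. At least a 2-fold change came with an unadjusted p under 0.05 for 329 higher genes (1.86%) and 200 lower genes (1.13%). Values below are CPM scaled with TMM factors, each log2 fold change is YJT minus Blank with its standard error (SE), and no gene named below passed edgeR's adjusted threshold in that contrast.

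The genes lower in YJT with the smallest p-values included Sost, the stromal gene Vcam1 and the macrophage gene Cd163. Sost had 1.88, 1.18 and 0.802 CPM in YJT libraries, against 2.43, 1.99 and 5.70 in Model and 21.1, 5.70 and 17.3 in Blank. The YJT libraries were the lowest and did not overlap with Blank, and Blank2 was far below the other 2 Blank libraries. The log2 fold change of Sost was -3.51 (SE 0.91), beside -2.12 for Model minus Blank. Sost lies on the minus strand at chr10:89897087-89900131, as the authors' file has it, on a genome build not given in the sources used here.

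Vcam1, the adhesion molecule by which stromal cells and vessels hold white cells, had 52.1, 26.0 and 29.5 CPM in YJT, 82.6, 61.3 and 59.9 in Model and 177, 65.2 and 191 in Blank. Its log2 fold change was -2.01 (SE 0.48), with no overlap between YJT and Blank although Blank2 lay inside the Model range. Cd163, the macrophage receptor that takes up haemoglobin bound to haptoglobin, had 15.5, 5.33 and 11.6 CPM in YJT, 19.2, 10.7 and 20.5 in Model and 55.5, 21.0 and 48.9 in Blank, a log2 fold change of -1.95 (SE 0.50). Hmox1, the enzyme that opens the heme ring, had 57.6, 35.5 and 55.9 CPM in YJT, 74.6, 72.1 and 65.6 in Model and 110, 81.0 and 103 in Blank, a log2 fold change of -0.98 (SE 0.20). For both Cd163 and Hmox1 the YJT libraries lay below Blank without overlap.

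Other lower genes included the transporter Slc9a9 and the enzyme Hpgds. Slc9a9, a sodium and proton exchanger of endosomes, had 7.37, 5.26 and 5.36 CPM in YJT, 11.5, 9.90 and 12.5 in Model and 11.9, 14.2 and 16.1 in Blank, a log2 fold change of -1.23 (SE 0.23). Here the Model libraries overlapped with Blank and the YJT libraries did not. Hpgds, the prostaglandin D synthase of blood-lineage cells, had 3.72, 1.97 and 1.84 CPM in YJT, 4.26, 3.39 and 3.30 in Model and 11.3, 6.30 and 11.1 in Blank, a log2 fold change of -1.93 (SE 0.38). Tfpi, an inhibitor of the tissue factor pathway of clotting, was at -0.99 (SE 0.21) and Cxcl14, a chemokine, at -1.44 (SE 0.33). Dnm1l, the dynamin-like protein that divides mitochondria, was at -0.68 (SE 0.17), and Arhgap18 at -0.67 (SE 0.17). These were the 10 lower genes that carry a symbol, reach 1 FPKM and separate all libraries, taken by smallest p. All 10 were also lower in Model, and in 4 of them the Model libraries lay wholly below Blank (over all genes 7.99%). The genes were chosen for their distance from the same 3 Blank libraries, so nothing is read from these counts or from the smaller distances in Model.

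The 10 genes higher in YJT chosen the same way had log2 fold changes between 0.68 and 1.21. Skp2, the F-box protein that marks cell-cycle inhibitors for destruction, had 21.5, 28.6 and 30.3 CPM in YJT, 21.6, 30.5 and 24.6 in Model and 15.5, 16.6 and 15.5 in Blank, a log2 fold change of 0.76 (SE 0.16). Every YJT and every Model library lay above every Blank library, and YJT and Model covered the same range. Rhbdf2, the inactive rhomboid that carries the TNF-releasing protease ADAM17 to the cell surface, had 46.4, 42.6 and 53.7 CPM in YJT, 40.9, 35.1 and 35.6 in Model and 25.6, 22.8 and 22.1 in Blank, a log2 fold change of 1.02 (SE 0.22). Slc22a15, a membrane transporter, had 17.4, 16.4 and 19.7 CPM in YJT, 13.1, 10.6 and 9.81 in Model and 7.37, 8.00 and 7.67 in Blank, a log2 fold change of 1.21 (SE 0.27). In both of these genes the 3 groups formed a ladder with no overlap, YJT highest and Blank lowest.

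Snrnp70, a protein of the U1 splicing particle, was at 1.03 (SE 0.23), Hnrnph3, another RNA-binding protein, at 0.70 (SE 0.16) and Kin, a DNA- and RNA-binding protein, at 1.15 (SE 0.25). Pigv, a mannosyltransferase of the lipid anchors of surface proteins, was at 0.86 (SE 0.19). The remaining log2 fold changes were 0.79 (SE 0.18) for Abhd6, a lipase of monoacylglycerols, 0.68 (SE 0.15) for Rnpepl1 and 0.88 (SE 0.20) for Mbd6, which belongs to the methyl-CpG-binding domain family. All 10 were higher in Model as well, with the Model libraries wholly above Blank in all 10 (over all genes 7.69%), and here too the choice of genes rests on the same Blank libraries. DESeq2 called 10 of the 10 higher genes and 9 of the 10 lower ones (over all genes 0.495% higher and 0.165% lower). The genes were chosen by p-value and separation in these same counts, so nothing is read from these calls.

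**Figure D1:**
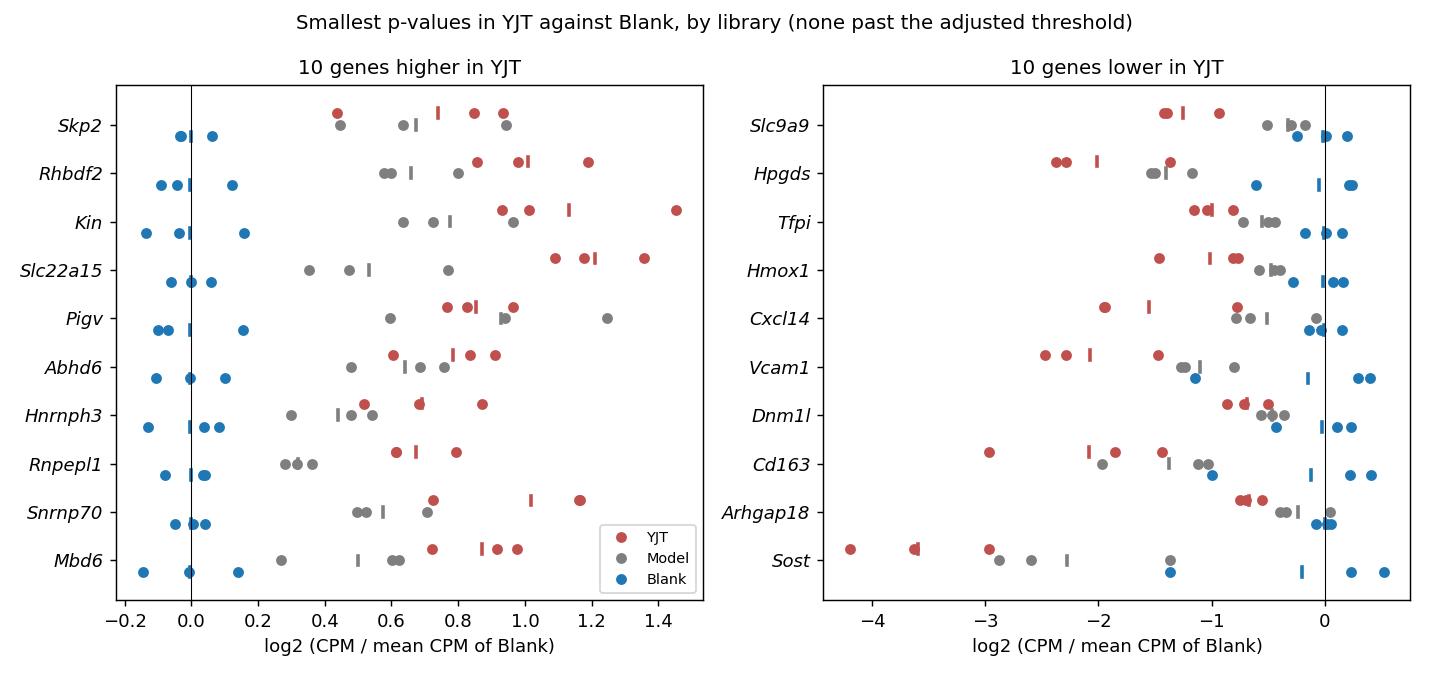
Each point is 1 library on a log2 scale relative to the mean CPM of Blank, for YJT, Model and Blank, and short bars are group means. The YJT points lie right of every Blank point for the 10 higher genes and left of every Blank point for the 10 lower ones, by the rule that chose them, and Sost spans the widest range.

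Gene lists for cell types and pathways are described by counts and medians, against a median log2 fold change over all genes of -0.024, where 47.7% of genes were above 0 and 52.2% below. Shares of genes wholly above or below Blank are to be read against 10.5% and 7.73%. Where leaving out 1 library moved a list's median by over 1.5 times, its lowest and highest values over the 6 left-out libraries are given in parentheses. Of 43 lists, 33 had a median below 0 and 10 above 0, and 15 were more than 0.5 from 0. Of 672 distinct list genes tested, edgeR passed 0 and DESeq2 called 10: Sost, Tnfsf11, Lepr, Vcam1, Cd163, Axin2, Mt-nd5, Hmox1, Tnfaip3 and Skp2. Over all genes DESeq2 called 112 of 16963 (0.66%). The lists were chosen with earlier results of these data known, so nothing is read from the count of 10. Without scaling factors beyond library totals the median over all genes was -0.16.

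**Figure D2:**
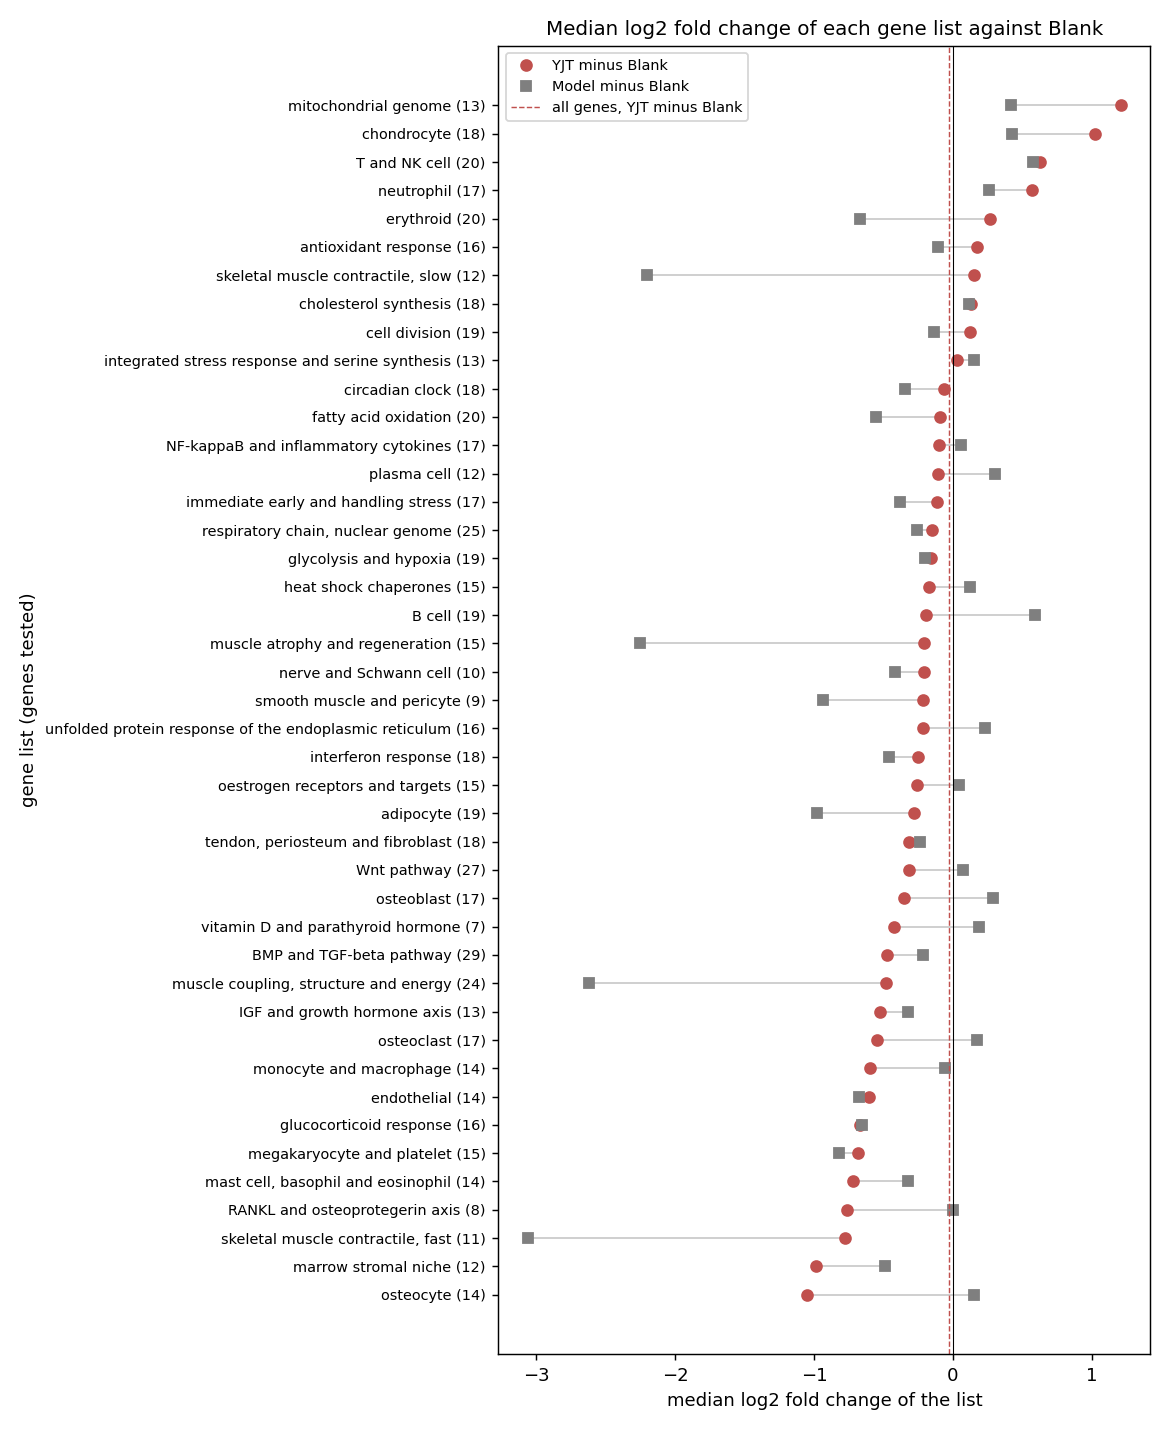
Each row is a gene list with its number of genes tested, circles mark the median log2 fold change of YJT minus Blank and squares that of Model minus Blank, and the dashed line is the all-gene median for YJT (-0.024). Osteocyte and marrow stromal lists lie near -1 for YJT, and the muscle lists lie far lower for Model than for YJT.

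Most osteocyte genes had lower values in YJT than in Blank. Of 14 tested, 12 were lower and 2 higher, with 5 wholly below Blank, and the median log2 fold change was -1.05, beside 0.15 for Model minus Blank. Dmp1, a matrix protein of mineralizing osteocytes, had 314, 201 and 44.8 CPM in YJT, 348, 458 and 849 in Model and 455, 808 and 657 in Blank. Mepe, a phosphoprotein of the same matrix, had 79.2, 58.0 and 16.4 CPM in YJT, 80.2, 98.9 and 293 in Model and 181, 149 and 182 in Blank. Both were below Blank in every YJT library and lowest in YJT3. Their log2 fold changes were -1.78 (SE 0.70) and -1.74 (SE 0.70). Ackr3, a scavenging chemokine receptor, was at -1.16 (SE 0.41). The median of the osteocyte list was -0.77 without YJT3 and -1.54 without YJT1.

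Osteoblast genes showed wide spread inside YJT. Of 17 tested, 14 were lower and 3 higher, none separated the groups, and the median was -0.36, -1.02 without YJT1 and turning to 0.047 without YJT3. For Model minus Blank the median of this list was 0.29. Bglap, which encodes osteocalcin, had 1088, 1388 and 226 CPM in YJT, 902, 2013 and 2210 in Model and 829, 1943 and 1419 in Blank. Runx2, the master transcription factor of the lineage, had 67.7, 40.4 and 26.9 CPM in YJT, 63.1, 50.2 and 88.6 in Model and 38.3, 76.8 and 56.5 in Blank. YJT3 was the lowest library for both, and YJT overlapped with Blank. The log2 fold changes were -0.63 (SE 0.67) for Bglap, -0.35 (SE 0.44) for Runx2, -0.56 (SE 0.95) for Col1a1 and -0.36 (SE 0.74) for Sp7, which was 0.092 without YJT3. Ibsp, bone sialoprotein, was at -1.20 (SE 0.87).

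In the RANKL axis, 7 of 8 genes were lower and 2 lay wholly below Blank, with a median of -0.76 (-1.43 without YJT1, -0.43 without YJT3, and 0.0023 for Model minus Blank). Tnfsf11, which encodes RANKL, had 1.39, 0.633 and 0.428 CPM in YJT, 3.22, 2.18 and 1.96 in Model and 3.59, 6.20 and 2.44 in Blank. Every YJT library was under every Model and every Blank library, at a low level, and the log2 fold change was -2.32 (SE 0.63), beside -0.73 for Model minus Blank. Traf6, an adaptor inside the osteoclast receptor pathway, was at -0.54 (SE 0.24), and Csf1, the macrophage growth factor, at -0.86 (SE 0.49). The decoy receptor gene Tnfrsf11b, osteoprotegerin, had 28.5, 5.08 and 2.71 CPM in YJT, 23.0, 6.20 and 10.1 in Model and 8.25, 12.4 and 14.1 in Blank. YJT1 was the highest of these 9 libraries and YJT3 the lowest. Its log2 fold change was 0.062 (SE 0.87), and -1.58 without YJT1.

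Osteoclast genes were lower in 14 of 17, with 2 wholly below Blank and a median of -0.55 (-1.37 without YJT1, -0.28 without Blank2). Ctsk, the collagen-cutting protease cathepsin K, had 1979, 921 and 423 CPM in YJT, 1870, 2772 and 2951 in Model and 916, 3206 and 1763 in Blank, a log2 fold change of -0.82 (SE 0.68). Acp5, the tartrate-resistant phosphatase, had 1731, 474 and 207 CPM in YJT, 1005, 1580 and 1389 in Model and 610, 1751 and 1161 in Blank, at -0.55 (SE 0.79). YJT1 and YJT2 lay inside the Blank range for Ctsk and only YJT1 did for Acp5, with YJT3 lowest for both. Itgb3, the integrin chain of the resorbing osteoclast, was at -1.51 (SE 0.71), and Dcstamp, needed for osteoclast fusion, at -1.44 (SE 0.67).

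Wnt pathway genes were lower in 18 and higher in 9 of 27, with 7 wholly below and 2 wholly above Blank and a median of -0.32 (-0.74 without YJT1, -0.038 without YJT3). Dkk1, a secreted inhibitor of Wnt receptors, had 2.05, 0.866 and 0.187 CPM in YJT, 2.37, 5.27 and 8.99 in Model and 4.41, 5.51 and 5.01 in Blank, a log2 fold change of -2.27 (SE 0.82). Axin2, a feedback inhibitor and a common target of the pathway, had 5.22, 6.36 and 6.44 CPM in YJT, 4.61, 5.77 and 4.39 in Model and 2.84, 4.08 and 3.06 in Blank, a log2 fold change of 0.85 (SE 0.25). Sost, also in this list, and Dkk1 were lower in all 3 YJT libraries than in any Blank library, and Axin2 was higher. These are the 3 list members with the smallest p, the other members are not shown, and Wnt signalling itself was not tested. BMP and TGF-beta genes were lower in 27 of 29, with 3 wholly below Blank and a median of -0.47 (-0.98 without YJT1, -0.31 without YJT3). Bmp2 was at -1.13 (SE 0.47) and Bmp7 at -1.94 (SE 0.74), both bone-forming ligands. In the IGF and growth hormone list 9 of 13 were lower and 4 higher, with a median of -0.52 (-0.88 without YJT1, -0.21 without YJT3). Igfbp5, an IGF-binding protein of bone, was at -0.90 (SE 0.46). Igf1r, the IGF receptor, went the other way at 0.76, the highest value in the list.

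Cartilage genes depended on 1 library. Of 18 chondrocyte genes, 16 were higher with a median of 1.02, which became -1.76 without YJT1. Comp, a cartilage matrix protein, had 702, 50.3 and 8.06 CPM in YJT, 229, 32.1 and 119 in Model and 31.2, 131 and 85.0 in Blank. YJT1 was the highest and YJT3 the lowest of the 9 libraries. Acan, Col2a1 and Col10a1 together took 1.76% of counts in YJT1, 0.0738% in YJT2 and 0.0155% in YJT3, against a mean of 0.257% ± 0.152 in Blank (SD, n = 3). Genes of tendon, periosteum and fibroblasts were lower in 12 of 18 with a median of -0.31, -0.99 without YJT1 and 0.044 without YJT3.

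Marrow stromal niche genes were lower in YJT in 12 of 12, with 5 wholly below Blank and a median of -0.99 (-0.49 for Model minus Blank). The list holds factors that hold and feed blood stem cells, and also receptors and transcription factors of the stromal cells. Lepr, the leptin receptor that marks these stromal cells, had 31.5, 16.4 and 13.6 CPM in YJT, 54.3, 48.2 and 42.0 in Model and 59.0, 55.8 and 84.7 in Blank, a log2 fold change of -1.70 (SE 0.45). Cxcl12, the chemokine that keeps stem cells in the marrow, had 442, 231 and 218 CPM in YJT, 634, 473 and 507 in Model and 716, 596 and 998 in Blank, at -1.37 (SE 0.49). Kitlg, stem cell factor, had 64.1, 34.3 and 31.2 CPM in YJT, 63.0, 70.4 and 80.8 in Model and 90.8, 77.7 and 106 in Blank, at -1.09 (SE 0.37). In each of the 3 genes YJT lay below Blank without overlap, and YJT1 was the highest YJT library.

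Vcam1 from this list and Tnfaip3, the feedback inhibitor A20 of NF-kappaB signalling, were both lower in YJT, and their promoters are shown because both hold the letters of a kappaB-like motif on either strand (GGG, 2 bases of any kind, TT, 1 base of any kind, CC). Tnfaip3 had 9.69, 6.66 and 9.01 CPM in YJT, 9.54, 10.1 and 11.7 in Model and 16.9, 13.1 and 14.4 in Blank, a log2 fold change of -0.81 (SE 0.22) with no overlap between YJT and Blank. The windows are the 250 bases before the start site from RefSeq on build GRCr8, chr2:206742784-206743033 and chr1:15543980-15544229, both on the minus strand, and capitals mark the motif. The match begins 93 bases upstream in Vcam1, and 67 and 55 bases upstream in Tnfaip3, there in the reverse orientation. The pattern is a fixed spelling. Close variants, such as the stretch shortly before the Vcam1 match, are left unmarked, so matches are not a count of kappaB sites.
Vcam1: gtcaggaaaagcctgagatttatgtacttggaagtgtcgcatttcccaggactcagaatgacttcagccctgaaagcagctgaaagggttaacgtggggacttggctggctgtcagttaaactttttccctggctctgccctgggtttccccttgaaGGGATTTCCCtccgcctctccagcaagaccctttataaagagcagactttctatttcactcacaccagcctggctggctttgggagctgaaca
Tnfaip3: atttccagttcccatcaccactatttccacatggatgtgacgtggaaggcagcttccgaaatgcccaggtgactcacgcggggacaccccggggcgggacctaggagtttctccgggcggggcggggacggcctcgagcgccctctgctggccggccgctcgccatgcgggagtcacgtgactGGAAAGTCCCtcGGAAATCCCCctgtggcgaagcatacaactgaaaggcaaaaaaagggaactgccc
Of 33469 promoter windows of this length, 4.36% held at least 1 match and 0.242% held 2 or more. In the NF-kappaB and cytokine list, 6 of 11 genes with a promoter in the RefSeq table held a match (Il6, Cxcl1, Cxcl2, Nfkbia, Tnfaip3 and Nfkb2). The list was drawn up around NF-kappaB and holds Tnfaip3 itself, so nothing about YJT is read from these counts. The expression of that list was 7 higher and 10 lower with a median of -0.10 (-0.25 without Blank2, -0.041 without YJT3), and Ccl2, a monocyte-attracting chemokine, was at -1.55 (SE 0.46). Ccl4, another chemokine of the list, went the other way at 1.42, the highest value in the list. A match is a description of the letters and does not show that a factor binds there.

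Macrophage genes were lower in 12 of 14, with 6 wholly below and 1 wholly above Blank and a median of -0.60 (-0.056 for Model minus Blank). The 3 chains of complement C1q were all lower: C1qa had 47.4, 26.7 and 28.4 CPM in YJT, 44.9, 102 and 53.1 in Model and 86.4, 104 and 109 in Blank. The log2 fold changes were -1.55 (SE 0.43) for C1qa, -1.62 (SE 0.53) for C1qb and -1.80 (SE 0.52) for C1qc, and none of the 3 overlapped between YJT and Blank. Mrc1, the mannose receptor, was at -1.10 (SE 0.42). The gene wholly above Blank was Vsig4, a complement receptor of tissue macrophages, with 2.40, 3.43 and 1.52 CPM in YJT, 1.17, 0.534 and 0.811 in Model and 0.484, 1.27 and 0.238 in Blank. It was higher in every YJT library, at a low level, with a log2 fold change of 1.88 (SE 0.59).

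Endothelial genes were lower in 13 of 14, with 3 wholly below Blank and a median of -0.61 (-0.93 without YJT1, -0.45 without YJT3, and -0.68 for Model minus Blank). Stab2, a scavenger receptor of sinusoid endothelium, had 1.51, 1.32 and 1.87 CPM in YJT, 8.27, 1.39 and 1.20 in Model and 13.9, 2.80 and 17.3 in Blank, a log2 fold change of -2.86 (SE 0.87). Blank2 was close to YJT and the other 2 Blank libraries were high. Tek, the angiopoietin receptor, was at -0.76 (SE 0.29). Smooth muscle and pericyte genes were lower in 9 of 9 with a median of -0.21 (-0.35 without YJT1, -0.064 without Blank2, and -0.94 for Model minus Blank), none separated. Adipocyte genes were lower in 13 and higher in 6 of 19, with 4 wholly below and 2 wholly above Blank. Their values ran from -1.04 to 0.998. The median was -0.28 (-0.78 without YJT1, -0.017 without YJT2), and -0.98 for Model minus Blank. Fabp4, the fatty acid carrier of fat cells and vessels, had 167, 77.4 and 84.2 CPM in YJT, 82.3, 23.2 and 57.0 in Model and 193, 178 and 255 in Blank, at -0.93 (SE 0.38). Adipoq was at -0.87 (SE 0.79) and Pparg, the fat cell regulator, at -0.88 (SE 0.48).

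**Figure D3:**
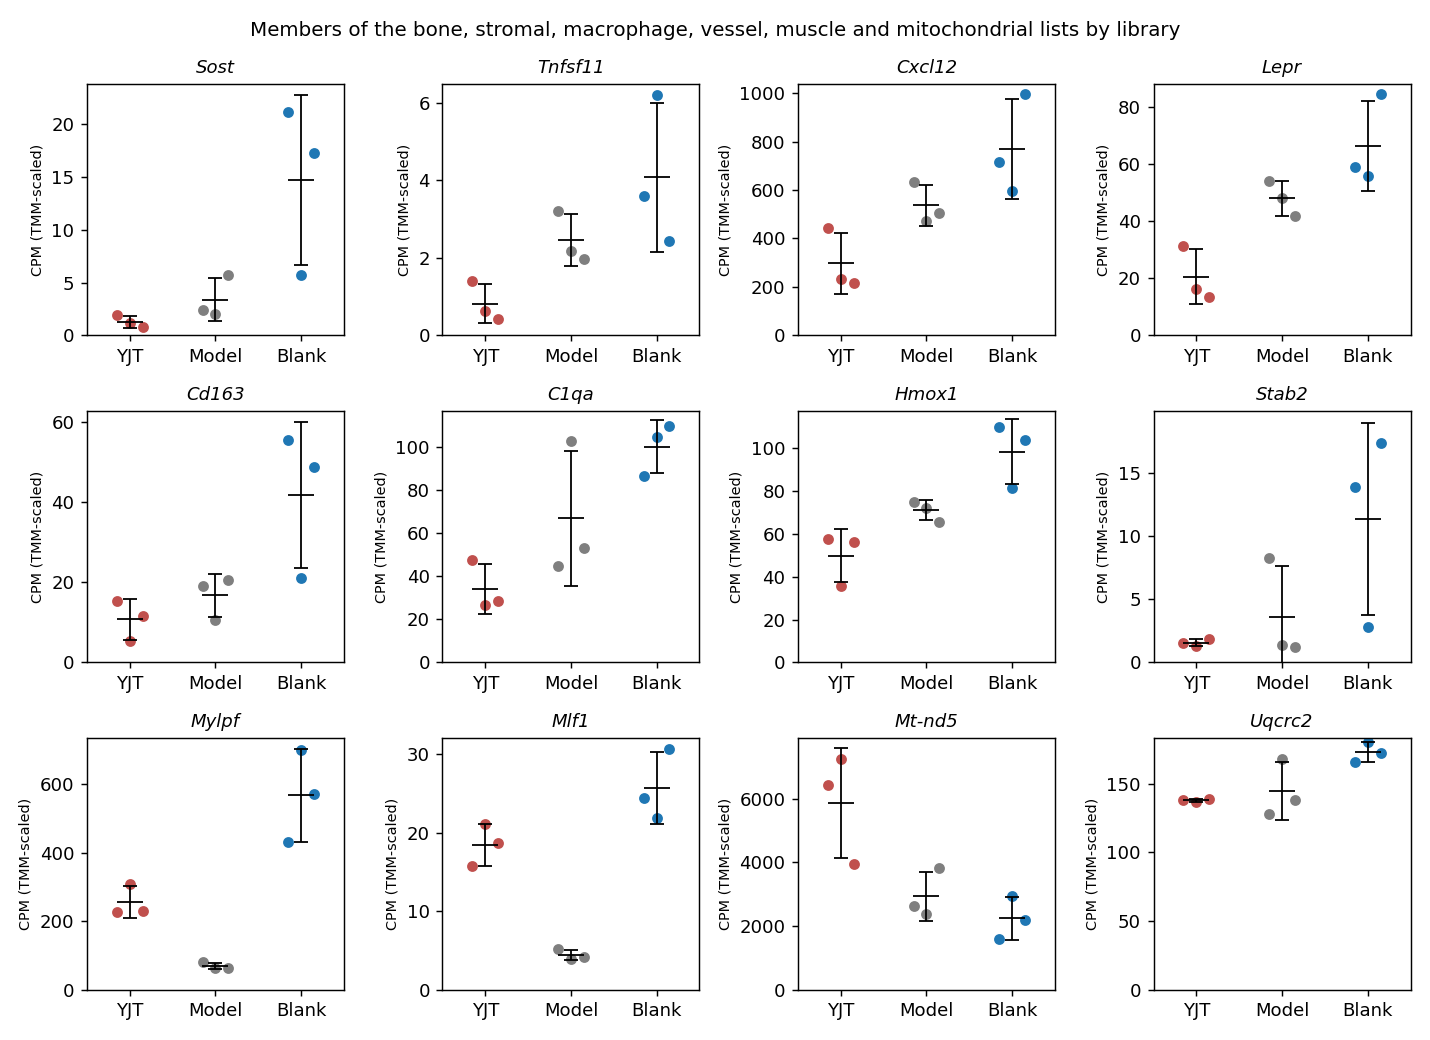
Each panel shows 1 gene in CPM, with a point per library, a horizontal mark at the mean and whiskers of 1 SD (n = 3, cut at 0 for Stab2 in Model), for YJT, Model and Blank. The bone, stromal, macrophage and vessel genes are lowest in YJT or shared low in YJT and Model, the muscle genes Mylpf and Mlf1 are lowest in Model, and Mt-nd5 is highest in YJT.

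Skeletal muscle genes lay between Model and Blank or at the Blank level. Fast-fibre contractile genes were lower in 11 of 11, with 8 wholly below Blank and a median of -0.78, beside -3.06 for Model minus Blank. Mylpf, the fast myosin light chain, had 226, 309 and 230 CPM in YJT, 79.9, 62.6 and 63.5 in Model and 430, 701 and 572 in Blank, a log2 fold change of -1.15 (SE 0.65). The 3 groups did not overlap, and Model was lowest. Slow-fibre genes were higher in 9 of 12 with a median of 0.16 (0.0088 without Blank2, 0.37 without YJT3), beside -2.20 for Model minus Blank, and none separated YJT from Blank. Tnnc1, the troponin C of slow and cardiac fibres, had 117, 110 and 55.2 CPM in YJT, 21.1, 16.1 and 27.5 in Model and 76.0, 69.3 and 79.2 in Blank, a log2 fold change of 0.33 (SE 0.34).

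Of the genes for muscle coupling, structure and energy, 20 of 24 were lower, 11 of them wholly below Blank, with a median of -0.48 (-0.58 without Blank2, -0.31 without Blank3, and -2.62 for Model minus Blank). Mlf1 had 15.7, 21.0 and 18.7 CPM in YJT, 5.14, 3.93 and 4.22 in Model and 24.4, 21.9 and 30.7 in Blank. The YJT libraries lay between the groups without overlap. The log2 fold change was -0.47 (SE 0.31) for YJT minus Blank, and -2.53 for Model minus Blank with an edgeR adjusted p of 0.0276. Sh3bgr was at -0.59 (SE 0.34), Adssl1, a muscle enzyme of purine turnover, at -0.57 (SE 0.27) and Pkia, which inhibits protein kinase A, at -0.45 (SE 0.25). All of these had YJT libraries wholly between Model and Blank. Over all genes, YJT libraries lay wholly above Model for 6.83% and wholly below it for 4.92%. Mlf1, Sh3bgr, Adssl1 and Pkia are the edgeR calls of Model against Blank, so low Model values were part of their choice. Nothing is read from their place above Model. For YJT minus Model, edgeR called 0 of 17657 genes (0%), with 1162 at an unadjusted p under 0.05 (6.58%), and DESeq2 called 96. Muscle atrophy and regeneration genes were lower in 10 of 15 with a median of -0.21 (-0.50 without YJT1, -0.094 without Blank1, and -2.25 for Model minus Blank).

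All 13 protein-coding genes of the mitochondrial genome were higher in YJT. Of these, 7 lay wholly above Blank (over all genes 10.5%) and 12 had an unadjusted edgeR p under 0.05 (over all genes 5.52% were higher at that level). All 13 are parts of the mitochondrial share of each library, given below, and were not taken as separate observations. The median log2 fold change was 1.21, beside 0.42 for Model minus Blank. Mt-nd5, a subunit of complex I, had 6425, 7258 and 3931 CPM in YJT, 2622, 2378 and 3809 in Model and 1606, 2944 and 2178 in Blank, a log2 fold change of 1.39 (SE 0.41). Every YJT library was above every Model and every Blank library. Mt-co1, of complex IV, had 75838, 64527 and 34970 CPM in YJT, 26240, 37016 and 35061 in Model and 18338, 29691 and 20953 in Blank, a log2 fold change of 1.35 (SE 0.45), and YJT3 fell inside the Model range. Transcripts of the mitochondrial genome took 21.7%, 18.5% and 11.8% of counts in YJT, a mean of 17.3% ± 5.03, against 11.3% ± 1.93 in Model and 8.07% ± 2.37 in Blank (SD, n = 3 each). The two-sided exact permutation test of this share gave p = 0.1 for YJT against Blank, which is the smallest that 3 against 3 allows, and p = 0.2 for Model against Blank. With these genes left out of the table, edgeR again called 0 genes.

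Nuclear genes of the respiratory chain had a median below 0. Of 25, 23 were lower and 2 higher, with 9 wholly below Blank and a median of -0.15 (-0.21 without YJT2, -0.099 without YJT1, and -0.26 for Model minus Blank). Uqcrc2, a subunit of complex III, had 138, 136 and 139 CPM in YJT, 128, 168 and 138 in Model and 166, 180 and 172 in Blank, a log2 fold change of -0.33 (SE 0.15). YJT lay below Blank and inside the Model range. Fatty acid oxidation genes were lower in 13 of 20 with a median of -0.093 (-0.17 without YJT2, -0.016 without Blank3, and -0.55 for Model minus Blank), and Hadh, a dehydrogenase of that pathway, was at -0.45 (SE 0.14). Glycolysis and hypoxia genes were lower in 12 of 19 with a median of -0.16 (-0.16 without YJT1, -0.057 without YJT2). Cholesterol synthesis genes were higher in 11 of 18 with 3 wholly above Blank and a median of 0.13 (below 0 without scaling factors, -0.0081 with limma at a pseudocount of 0.1, 0.075 without YJT3, 0.18 without Blank1). Srebf2, the transcription factor of the pathway, had 62.3, 56.6 and 75.3 CPM in YJT, 56.3, 58.6 and 52.4 in Model and 47.9, 46.0 and 38.3 in Blank, a log2 fold change of 0.55 (SE 0.20). YJT lay above Blank and overlapped with Model.

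Genes induced by glucocorticoids were lower in 14 of 16, with 4 wholly below Blank and a median of -0.67 (-1.04 without YJT1, -0.45 without YJT3, and -0.65 for Model minus Blank). Tsc22d3, the glucocorticoid-induced leucine zipper, had 152, 91.1 and 68.7 CPM in YJT, 90.5, 99.9 and 89.5 in Model and 188, 177 and 165 in Blank, a log2 fold change of -0.76 (SE 0.24). Per1, which is both a clock gene and a glucocorticoid target, had 52.6, 28.3 and 19.0 CPM in YJT, 17.9, 13.3 and 22.4 in Model and 74.5, 54.6 and 66.9 in Blank, at -0.97 (SE 0.36). Both were lower than Blank in every YJT library. Clock genes divided evenly, 9 higher and 9 lower, with a median of -0.061 (-0.47 without YJT1, 0.079 without YJT3), and Arntl, the core activator, was at -0.55 (SE 0.24). Ciart, another clock gene, went the other way at 1.82, the highest value in the list. Time of tissue collection is not given in the labels, and its part in these values was not tested.

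Genes of the unfolded protein response were lower in 12 of 16, with 5 wholly below Blank and a median of -0.21 (-0.26 without YJT1, -0.13 without Blank1), beside 0.23 for Model minus Blank. Pdia4, a protein disulphide isomerase of the endoplasmic reticulum, had 83.4, 67.0 and 76.1 CPM in YJT, 123, 127 and 141 in Model and 106, 108 and 95.2 in Blank, a log2 fold change of -0.45 (SE 0.18). The 3 groups did not overlap, YJT lowest and Model highest. Calr, calreticulin, was at -0.41 (SE 0.16) and Dnajc3, a co-chaperone, at -0.54 (SE 0.16). Heat shock chaperones were lower in 13 of 15 with a median of -0.17 (-0.29 without Blank2, -0.091 without Blank3). In the integrated stress response list, with a median of 0.028 (below 0 without scaling factors, -0.14 with limma at a pseudocount of 0.1, 0.03 without Blank1, 0.069 without YJT3), Chac1, a glutathione-degrading enzyme, was at -1.06 (SE 0.36) and Sesn2, a stress-induced sestrin, at 0.59 (SE 0.18).

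Oestrogen receptors and targets, the genes nearest to the surgery, were higher in 4 and lower in 10 of 15, with 1 at 0 and a median of -0.26 (-0.42 without YJT1, -0.039 without YJT2, -0.48 with limma at a pseudocount of 0.1). Esr1, the main oestrogen receptor of bone, had 6.23, 2.81 and 2.00 CPM in YJT, 4.78, 6.49 and 0.959 in Model and 3.54, 1.66 and 1.11 in Blank, a log2 fold change of 0.81 (SE 0.72) with partial overlap. Pdzk1, a scaffold protein induced by oestrogen in human breast cells, was at 0.97 (SE 0.34), and Nrip1, a receptor co-repressor, at -0.45 (SE 0.20). Vitamin D and parathyroid hormone genes were lower in 4 and higher in 3 of 7 with a median of -0.43 (-0.73 without Blank1, 0.073 without YJT3), and 0.62 with the replicate number as a block. Slc20a1, a phosphate transporter, was at 0.75 (SE 0.24).

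Marrow cell lists differed in direction. Neutrophil genes were higher in 11 of 17, with 5 wholly above Blank and a median of 0.57 (0.33 without YJT3, 0.75 without YJT1). Ngp, a granule protein, had 1304, 1727 and 2118 CPM in YJT, 1380, 1251 and 672 in Model and 842, 773 and 913 in Blank. Mmp8, the neutrophil collagenase, had 897, 1011 and 1172 CPM in YJT, 941, 829 and 443 in Model and 649, 443 and 456 in Blank. YJT lay above Blank for both, with log2 fold changes of 1.03 (SE 0.72) and 0.99 (SE 0.60). The other 6 genes of the list were lower, down to -0.47. The summed share of the neutrophil markers Mpo, Elane and Camp was 0.224% ± 0.0757 in YJT and 0.211% ± 0.0170 in Blank (SD, n = 3 each, exact permutation p = 0.9). T and NK cell genes were higher in 16 of 20 with a median of 0.63 (-0.098 among genes with a mean FPKM of at least 5, 0.13 without YJT2, 0.85 without Blank2), and Cd8b was at 1.63 (SE 0.57). The summed share of their markers Cd3e, Lck and Nkg7 was 0.00883% ± 0.00467 in YJT, against 0.00960% ± 0.00121 in Blank (SD, n = 3 each). Erythroid genes were higher in 19 of 20 with a median of 0.27 (0.0055 without YJT2, 0.57 without Blank1, and -0.67 for Model minus Blank), none separated. Hbb, a globin chain and the exception, was at -0.54 (SE 0.58).

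B cell genes were lower in 14 of 19 with a median of -0.20 (-0.32 without YJT2, -0.043 without Blank1), beside 0.59 for Model minus Blank. Ms4a1, the surface protein CD20, had 19.3, 24.1 and 13.8 CPM in YJT, 32.5, 54.9 and 39.0 in Model and 30.0, 29.4 and 27.0 in Blank, at -0.60 (SE 0.34). The 3 groups did not overlap, YJT lowest. Pax5, the B lineage regulator, was at 1.16 (SE 0.47) with overlap. Plasma cell genes were lower in 10 of 12 with a median of -0.11 (-0.24 without YJT2, -0.027 without YJT3). Megakaryocyte genes were lower in 13 of 15 with a median of -0.68 (-1.25 without YJT3, -0.41 without YJT1), none separated. Mast cell, basophil and eosinophil genes were lower in 11 of 14 with a median of -0.72. Cpa3, a mast cell protease, had 7.23, 7.01 and 7.51 CPM in YJT, 13.5, 26.4 and 7.63 in Model and 18.2, 14.8 and 24.1 in Blank, at -1.39 (SE 0.49), with YJT closely grouped below both other groups.

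The remaining lists had medians between -0.25 and 0.17. Nerve and Schwann cell genes were lower in 8 of 10 with a median of -0.21 (-0.53 without YJT1, -0.23 without YJT2). Among the 2 higher ones was Gfap, an intermediate filament of glial cells, with 22.7, 23.1 and 25.7 CPM in YJT, 1.70, 7.80 and 3.01 in Model and 3.84, 9.59 and 3.59 in Blank. It was higher in every YJT library than in any other, with a log2 fold change of 2.07 (SE 0.90). Interferon response genes were lower in 12 of 18 with a median of -0.25 (-0.48 without Blank2, 0.15 without Blank3), and Mx2, an interferon-induced GTPase, was at -1.76 (SE 0.76). Cell division genes were higher in 14 of 19 with a median of 0.12 (below 0 without scaling factors, -0.068 with limma at a pseudocount of 0.1, 0.013 without YJT2, 0.34 without YJT1), and Aurka, a mitotic kinase, was at 0.64 (SE 0.28). Antioxidant genes were higher in 9 of 16 with a median of 0.17 (-0.057 with the same limma setting, -0.053 without YJT2, 0.36 without YJT1). Immediate early genes were lower in 13 of 17 with a median of -0.11 (-0.51 without YJT1, -0.019 without YJT2), while Ier2, one of them, was at 0.52 (SE 0.23).

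Shares of counts for 14 marker sets of 2 to 4 genes give the same cell types as sums. The osteocyte set (Sost, Dmp1, Mepe and Phex) took 0.0248% ± 0.0177 in YJT, 0.0864% ± 0.0481 in Model and 0.0958% ± 0.0173 in Blank (SD, n = 3 each). The skeletal muscle set took 0.182% ± 0.0134 in YJT, 0.0339% ± 0.0189 in Model and 0.323% ± 0.0809 in Blank, and the macrophage set 0.0186% ± 0.00612 in YJT, 0.0339% ± 0.00605 in Model and 0.0367% ± 0.00541 in Blank. The osteocyte, skeletal muscle, macrophage, adipocyte and Schwann cell sets had no overlap between YJT and Blank, with an exact permutation p of 0.1 each and 0.28 after Benjamini-Hochberg adjustment over the 14 sets. The osteoblast set took 1.47% ± 1.12 in YJT, 3.27% ± 1.67 in Model and 2.52% ± 1.23 in Blank (exact p = 0.4). The part of these cell shares in the single-gene values was not tested.

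**Figure D4:**
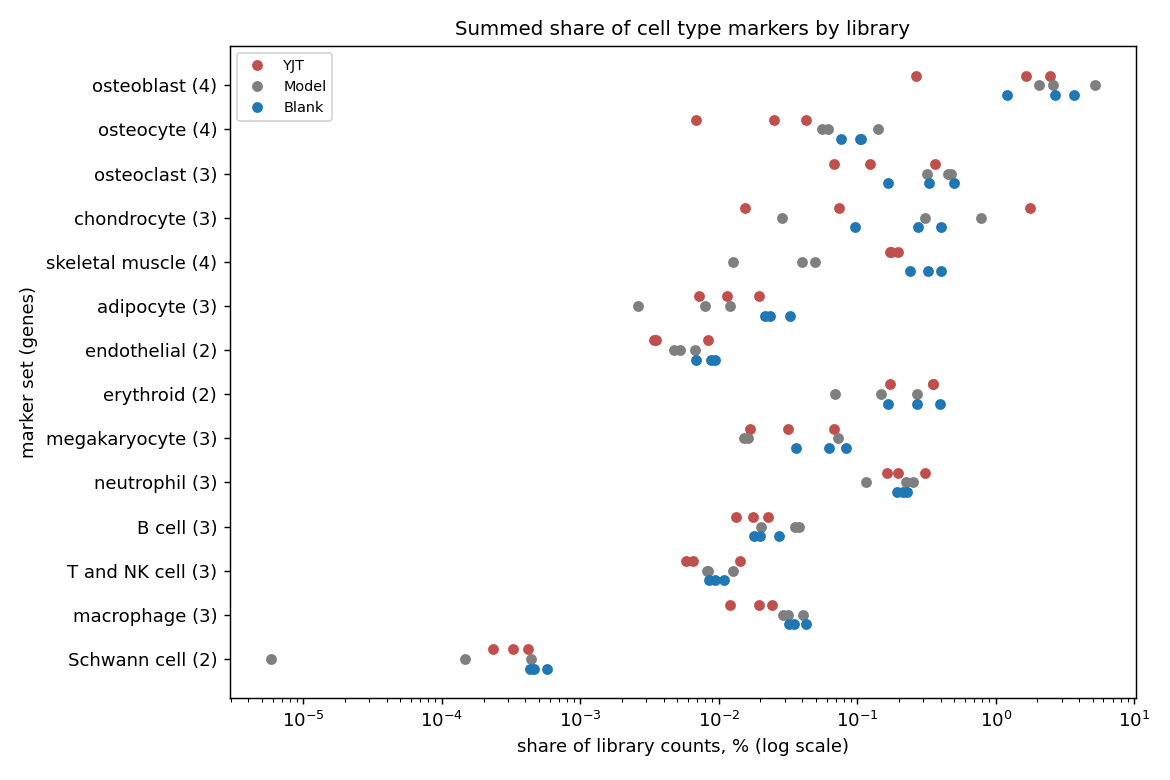
Each point is the summed share of library counts of a marker set, in percent on a log axis, for the 3 libraries of YJT, Model and Blank. Muscle shares are lowest in Model, osteocyte and macrophage shares are lowest in YJT on average, and the chondrocyte set spreads widely inside YJT, with YJT1 at 1.76%.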

How the data were processed

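RNA of rat bone was selected on oligo(dT) beads and sequenced from libraries with dUTP-marked strands and molecular identifiers, per the labels' protocols. The authors deposited 1 table of 22468 genes, with raw counts and FPKM values for each library, per the file headers. Tools listed without a role in the submitters' processing notes are HISAT2 2.0.4, cutadapt 1.9, StringTie 1.3.4d, UMI-tools, edgeR and DESeq2. Build, annotation and counting settings were not given in the sources used here, so overlapping or antisense genes and near copies may share reads. A count of 4 occurred 5143 times, against 3519 for 3 and 2314 for 5, and lone low counts carry little weight here.

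The deposited counts were tested with edgeR 4.0.16 in R 4.3.3: filterByExpr (17657 genes kept, 4811 left out), TMM factors and a robust quasi-likelihood fit with 5 group means over the 15 libraries, leaving 10 residual degrees of freedom. Tests were two-sided with Benjamini-Hochberg adjustment over all genes. SE is the log2 fold change divided by the root of F. Alternatives used DESeq2 1.42.0 and limma 3.58.1 on log2(FPKM + 1) and log2(FPKM + 0.1), FPKM values being the authors' own. The steps were checked on simulated counts.

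Genes named were 10 a direction by smallest p (with a symbol, a group mean of 1 FPKM and no overlap of libraries), the 3 smallest p-values of each of 43 lists, and 16 key genes. Of these, 2 list members are not reported here. Other list members were named after their values were seen. The comparison and all lists were chosen with earlier results of these data known. Libraries were grouped by title and condition label. No libraries of 1 group agreed within sampling noise. SYT and YJZYT entered the fit and are not described.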

Additional observations from a re-analysis of the deposited data

How the results depend on the processing

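Against 0 edgeR calls between YJT and Blank, DESeq2 gave 112, and an unadjusted p under 0.05 with a 2-fold change gave 529 genes. Leaving out each library gave 0 to 1 calls, the 1 being Rps10l1, higher in YJT without Blank replicate 2. YJT against Model gave 0 edgeR calls and 96 with DESeq2. RLE or no scaling factors, no filter, a mean FPKM of 5, limma, only the 6 libraries, no robust estimation and the fit without YJT3 and YJZYT3 gave 0, and so did leaving out mitochondrial genes, an alternative chosen after seeing the data. The cause of these differences was not tested.

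With the replicate number as a block the count was 0 (smallest adjusted p 0.624). Same-numbered libraries did not deviate together (correlations of -0.32, 0.04 and 0.004), so the numbers were not taken to pair samples.

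Of 2651 values of 151 named genes under the alternatives, 2608 kept direction and side of the threshold, 24 passed it with DESeq2 and 19 turned sign. Over left-out libraries the log2 fold change ranged from -0.15 to 3.87 for Matn1, -1.50 to 2.19 for Comp, -2.20 to 2.38 for Ucma and -1.58 to 0.53 for Tnfrsf11b, each lowest without YJT1, and from -0.78 to 0.091 for Mcam and -1.03 to 0.092 for Sp7. Without YJT3 and YJZYT3, Mcam was 0.039 and Sp7 0.092. With limma at pseudocounts 1 and 0.1, Comp was -0.13 and -0.23, Ucma -0.14 and -0.52, and Tnfrsf11b -0.44 and -0.73. With the replicate block, Ucma was -0.22 and Tnfrsf11b -0.44, and without scaling factors Tnfrsf11b was -0.088.

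Of 43 list medians 32 kept their sign throughout and 11 turned, among them T and NK cells (-0.098 at a mean FPKM of 5), interferon response (0.15 without Blank3), vitamin D and parathyroid hormone (0.62 with the replicate block), cholesterol synthesis (-0.0081) and cell division (-0.068), both with limma at 0.1. Marker shares, YJT minus Blank in percentage points, ranged over left-out libraries from -0.212 (without YJT1) to 0.659 for chondrocytes, -0.0402 to 0.0744 for erythroid genes, -0.0299 to 0.0424 for neutrophils and -0.00346 to 0.000741 for T and NK cells. With 3 libraries a group, an exact test cannot go below 0.1.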
